A study of Mus musculus with 2 samples.

Results

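The transcripts described here are those of 41 genes of autophagy and of lysosome biogenesis, chosen by name. A member was measured by every probe set whose only gene in the platform's annotation was that gene. Of the 41 genes, 39 had such a probe set, 89 probe sets in all, out of 18193 genes on the array. Total RNA of mouse haematopoietic stem cells, the bone marrow cells from which all blood lineages arise, had been hybridised to Affymetrix expression arrays. One group was Wip1 knock-out and the other wild type, both labelled as stem cells from animals aged 3 months, with 1 array each. Wip1 is the phosphatase encoded by Ppm1d and is known to restrain p53 and the DNA damage kinases; it has also been reported to restrain autophagy, which is the question this gene set addresses. The sources used here do not give the knockout allele, the sort of the cells, or the number and sex of the animals behind each array.

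Autophagy encloses cytoplasm in a double membrane, the autophagosome, and delivers it to the lysosome for digestion. The ULK kinase complex starts the process, the Beclin class III lipid kinase complex marks the membrane with the lipid PI3P, and a pair of conjugation reactions that resemble ubiquitin transfer attach proteins of the LC3 and GABARAP family to the growing membrane. Cargo receptors bind these proteins, and the transcription factors TFEB and TFE3 switch on genes of the lysosome. In haematopoietic stem cells autophagy is known for clearing active mitochondria and for preserving quiescence. Much of its control is by phosphorylation and lipidation, which transcript levels do not show.

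With 1 array per genotype there is no replicate, and no test across samples can be made. Differences are given as log2 of the knockout intensity minus log2 of the wild-type intensity, after the median difference of all named, detected probe sets had been set to 0. A probe set was called detected when it exceeded the array's median intensity, the floor, which was 25.9 on the knockout and 25.2 on the wild-type array, in at least 1 sample. Values below the floor were raised to it, which makes the difference a bound where only 1 array lay above it. The only error in the data is the disagreement between probe sets of the same gene, an SD of 0.22 on the log2 scale for a single probe set (5084 genes), which holds no variation between animals or arrays. In bulk RNA, fewer cells of a type and less RNA per cell cannot be told apart.

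The labelled cell type was checked against its markers. All 12 stem cell markers with a probe set, among them Kit, Cd34, Procr, Mecom and Hlf, were above the floor, and their differences ran from -0.66 (Slamf1) to 0.70 (Hlf). All 11 neutrophil markers were above it as well, among them Mpo (3665 in the knockout and 5498 in the wild type) and S100a8 (2376 and 2448). Lying above the floor therefore does not set stem cells apart from other cells. The targeted gene Ppm1d differed by -0.05 and 0.10 in its 2 probe sets, and the labels do not say whether these lie in the deleted part. The samples also differed in transcripts that depend on sex. Xist read 3778 in the knockout and 6228 in the wild type in its brightest probe set, and the Y-linked Eif2s3y read 149 and 31.8. Probe sets shared by several globin genes were all higher in the knockout, by 0.82, 1.16, 2.18 and 2.29, the first a bound. The brightest of them read 1763 in the knockout and 393 in the wild type.

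All 39 genes were detected, and their transcripts differed little between the samples. By its brightest probe set, no member differed by as much as 1.5-fold, against 3.84% of the 11440 detected genes. At that share a count of 0 says little for so short a list. The members ran from -0.46 (Sqstm1) to 0.33 (Rb1cc1), with a median of 0.07, 22 higher and 17 lower in the knockout. Over all detected genes the median was -0.0031 and 49.4% were above 0. A difference larger than the probe set SD was found for 7 members (17.9%), 4 of them higher and 3 lower, against 33.6% of all detected genes (17% higher and 16.6% lower). The median absolute difference was 0.12 for the members and 0.15 for all detected genes. Members whose 2 intensities both lay above the 75th percentile of their array, 24 genes, had a median of 0.0053 with 12 higher and 12 lower. The 6692 genes of the whole array that met the same limit had a median of -0.017, and 46.9% were higher.

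**Figure D1:**
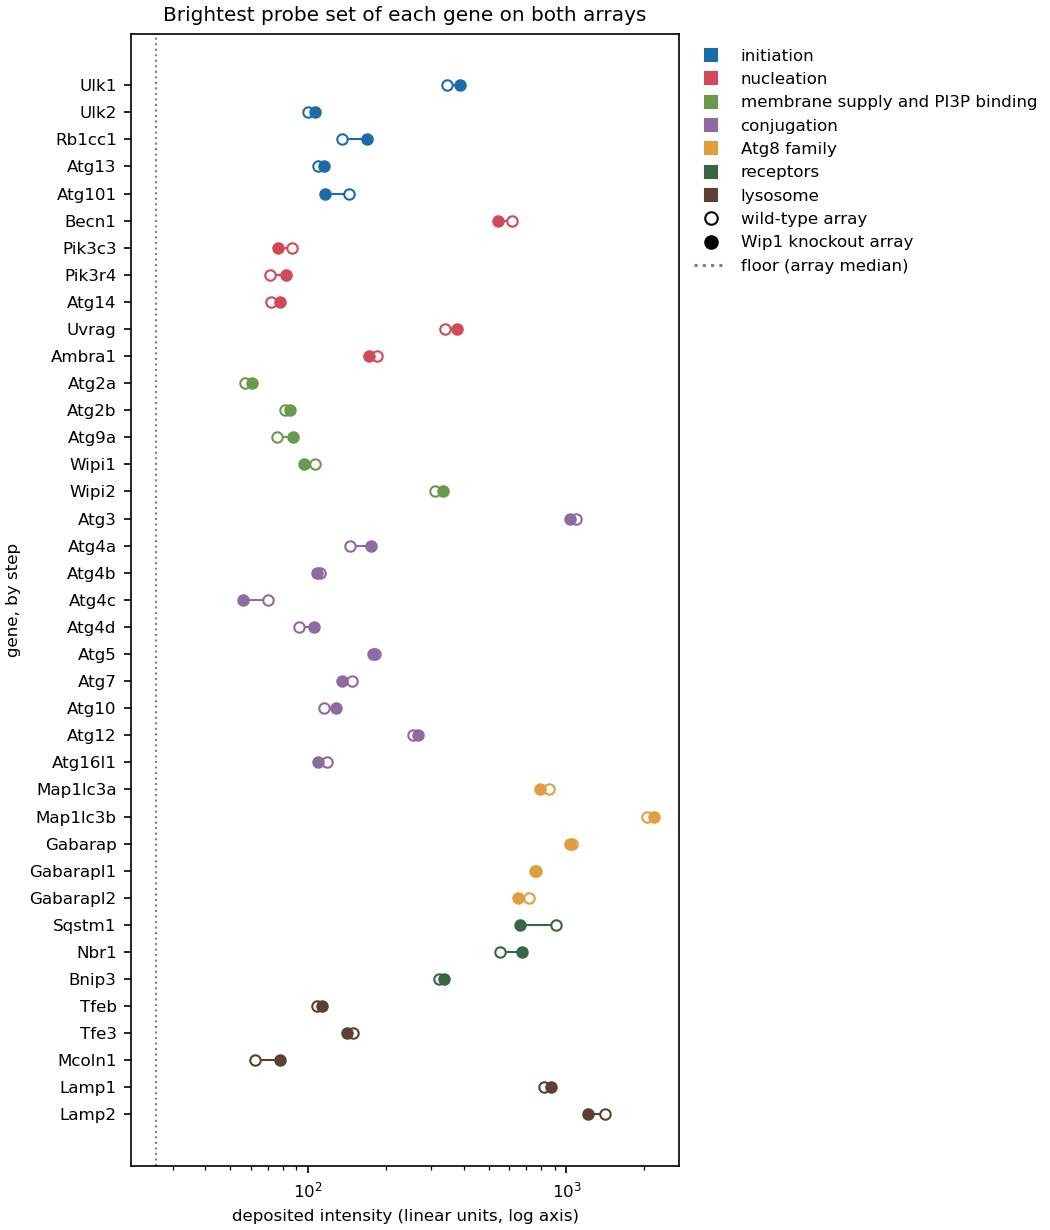
Deposited intensity (linear units on a log axis) of the brightest probe set of each of the 39 genes, in order of the steps of autophagy, on the wild-type array (open circles) and the Wip1 knockout array (filled circles), 1 array each; the dotted line is the floor at 25.9. Both circles of every gene lie above the floor, and the widest gap is that of Sqstm1, 662 in the knockout against 915 in the wild type; intensities of different genes come from different probes and are not to be compared.

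The initiation genes encode the ULK complex, which receives signals of nutrient and energy state. Ulk1, the kinase at its centre, read 389 in the knockout and 345 in the wild type, a difference of 0.18, with -0.01 in its other probe set. Its relative Ulk2 was higher in the knockout in each of 3 detected probe sets, by 0.10, 0.18 and 0.08, all within the SD. Rb1cc1, which encodes the scaffold FIP200, read 169 and 135, a difference of 0.33 that exceeded the SD, but its second probe set read 95.3 and 93.7 and differed by 0.04. Atg13, the adaptor of the complex, differed by 0.08 in its brightest probe set and by -0.33 and 0.07 in the others. Atg101, which stabilises Atg13, went the other way from the kinases, at 116 in the knockout and 144 in the wild type (-0.30, its only probe set). The step's median was 0.10 over 5 genes, with 4 higher and 1 lower.

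The nucleation genes encode the lipid kinase complex and its regulators. Becn1, which encodes Beclin, read 544 and 616 in its brightest probe set, a difference of -0.17, while 2 further probe sets detected on both arrays differed by 0.03 and 0.08. Pik3c3, the catalytic subunit, differed by -0.17 (76.4 against 86.6), and Pik3r4, its regulatory subunit, by 0.22 (82.2 against 71.3), just under the SD. The subunits that direct the complex to autophagosomes or endosomes, Atg14 and Uvrag, differed by 0.13 and 0.18. Ambra1, an activator of the complex, differed by -0.08 at 173 against 184. Its second probe set read 34.2 in the knockout and lay under the floor in the wild type, at least 0.45 higher. As the median of its probe sets Ambra1 was at 0.18 and Becn1 at 0.02, so the direction of both depended on the probe set. No gene of this step exceeded the SD, against 33.6% of detected genes, 3 of 6 were higher, and the median was 0.02. So few genes cannot set a step apart from that share.

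Genes of membrane supply and of PI3P binding, 5 in all, lay within the SD by their brightest probe sets, where 33.6% of detected genes exceeded it. Atg2a and Atg2b, lipid transfer proteins, differed by 0.10 and 0.07, and Atg9a, a lipid scramblase carried on vesicles, by 0.21 (87.4 against 76.1). Wipi1, which binds PI3P, was lower in all 4 detected probe sets, at -0.13, -0.16, -0.02 and -0.05, the last a bound. Wipi2, which recruits the conjugation machinery, read 334 and 310 (0.11), with -0.10 and -0.13 in its dimmer probe sets. The median of the 5 genes was 0.10, with 4 higher.

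The conjugation genes had a median of -0.03 over 10 genes, with 4 higher and 6 lower; the median was 0.0071 after quantile normalization and 0.02 with a floor at the 75th percentile. Atg7, the activating enzyme that serves both reactions, read 135 and 148 (-0.12), and its other probe sets differed by -0.0021 and 0.03. Of the enzymes that transfer the conjugates, Atg3 read 1033 and 1088 (-0.07, but 0.02 after quantile normalization) and Atg10 read 128 and 116 (0.16). The ubiquitin-like Atg12 differed by 0.07 in its brightest probe set and by -0.30 in the other (73.3 against 90.6). Its partner Atg5 was steady in 3 probe sets, at -0.02, -0.04 and -0.10, and Atg16l1, which places the conjugate on the membrane, differed by -0.10. The Atg4 proteases trim LC3 and GABARAP proteins before conjugation and release them afterwards. Atg4a read 176 in the knockout and 146 in the wild type, a difference of 0.28 by its only detected probe set. Atg4b differed by -0.03 in each of 2 probe sets, and Atg4d by 0.20 (105 against 92.2). The 2 probe sets of Atg4c went opposite ways, from 69.9 in the wild type to 56.2 in the knockout in one (-0.30) and from 33.7 to 43.9 in the other (0.39). Only Atg4a and Atg4c of this step exceeded the SD in the brightest probe set (20%, against 33.6% of detected genes).

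The LC3 and GABARAP genes encode the small proteins that are joined to the autophagosome membrane. Gabarap read 1033 and 1048 (-0.01, turning to 0.07 after quantile and 0.04 after loess normalization), Gabarapl1 read 762 and 756 (0.02, but -0.0045 with the floor added as an offset), and Gabarapl2 read 650 and 713 (-0.12). The other probe set of Gabarapl1 read 297 and 329 (-0.14), and the median of the pair was -0.06. Map1lc3a read 789 and 857 in its brightest probe set (-0.11) and 165 and 164 in the other. Map1lc3b, which encodes the LC3 protein most often used as an autophagosome marker, was measured by 4 probe sets. The brightest read 2182 in the knockout and 2046 in the wild type (0.10), the next 1573 and 1799 (-0.18), and the third 790 and 775 (0.04). The dimmest read 106 in the knockout and 51.6 in the wild type, 2.07-fold higher. It was the only one of the 72 detected member probe sets past 1.5-fold, against 4.5% of 19906 detected probe sets with 1 gene. Which part of the Map1lc3b transcript each probe set covers is not stated in the sources used.

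The cargo receptors link ubiquitinated proteins or mitochondria to LC3. Sqstm1, the receptor for ubiquitinated aggregates, itself degraded by autophagy, held the largest difference among the brightest probe sets and the least settled direction. Its brightest probe set read 662 in the knockout and 915 in the wild type (-0.46), and its other read 257 and 181 (0.51). The median of the pair was 0.03, so Sqstm1 cannot be called higher or lower here. Nbr1, a related receptor, read 674 and 554 (0.29), and its second probe set held exactly 57.2 on both arrays. Bnip3, a mitophagy receptor of the outer mitochondrial membrane, read 336 and 322 (0.07). Its relative Bnip3l, known for clearing mitochondria from red cells, had no probe set of its own. The 3 probe sets that the annotation gives to both Bnip3l and its pseudogene differed by -0.15, -0.07 and 0.15, and cannot be assigned to either. Optn had no probe set that met the rule and was not analysed here.

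**Figure D2:**
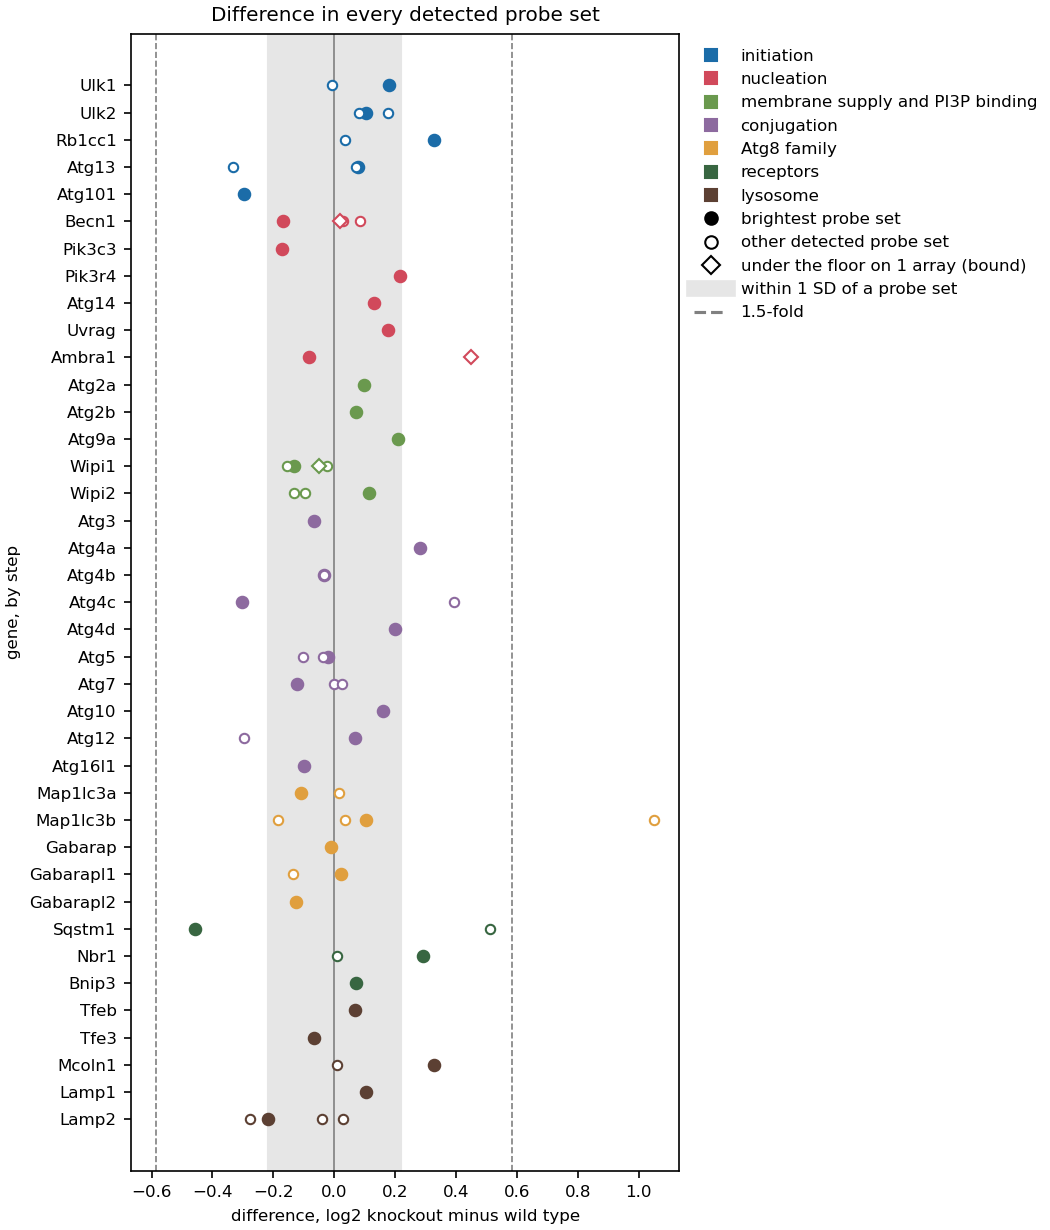
Difference between the arrays (log2 knockout minus wild type) in each of the 72 detected probe sets of the 39 genes, coloured by step; filled symbols are the brightest probe set of a gene, open symbols its others, diamonds bounds, the grey band 1 SD of a probe set (0.22) and the dashed lines 1.5-fold. Most symbols lie in the band, the dimmest Map1lc3b probe set lies alone beyond 1.5-fold at 1.05, and the 2 probe sets of Sqstm1 lie at -0.46 and 0.51.

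How far the probe sets of one gene went together sets a limit on all of these values. Of 20 members with at least 2 detected probe sets, 7 had all of them on the same side of 0 (35%), against 56.5% of 5084 genes. In 9 members the probe sets lay on both sides of 0 with a range wider than the SD (45%, against 31.6% of genes). These were Map1lc3b, Sqstm1, Atg4c, Ambra1, Atg13, Atg12, Lamp2, Becn1 and Wipi2. In Becn1 and Wipi2 no single probe set exceeded the SD. Exactly equal values on both arrays were held by 6 of the 89 member probe sets (6.74%), against 5.63% of all probe sets. Of these, 1 probe set each of Nbr1 and Mcoln1 was detected on both arrays, and centring turned its equal values into a difference of 0.01. The agreement of the probe sets of Nbr1 and of Mcoln1 rests on such a value.

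The transcription factor genes of lysosome biogenesis differed by less than the SD. Tfeb read 113 in the knockout and 109 in the wild type (0.07), and Tfe3 read 141 and 149 (-0.07), each by 1 probe set. Mcoln1, the lysosomal calcium channel that acts upstream of TFEB, read 77.7 and 62.3 (0.33), while its second probe set held 52.2 on both arrays. Lamp1, an abundant glycoprotein of the lysosomal membrane, read 873 and 818 (0.11). Lamp2, needed for fusion with autophagosomes and for chaperone-mediated autophagy, read 1207 and 1414 in its brightest probe set (-0.22, just under the SD), and -0.04, 0.03 and -0.28 in the other 3. The median of the 5 genes was 0.07, with Mcoln1 alone past the SD (20%, against 33.6% of detected genes).

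TFEB and TFE3 are known to bind an E-box with the core letters CACGTG, and promoters that hold these letters were looked up because lysosomal genes are the known targets. RefSeq promoter windows of build GRCm38.p6, from 250 bases before to 50 after each start, were matched by symbol for 34 members. The letters TCACGTG, on either strand, were in 5 of the 34 (14.7%), namely Atg14, Atg3, Atg7, Lamp1 and Mcoln1, against 4.29% of 27025 genes and 6.99% of the 9289 detected genes with a window. The bare core CACGTG, which any TCACGTG contains, was also in Atg5 and Bnip3, 7 of 34 in all (20.6%), against 8.09% of genes and 11.8% of detected genes. The Lamp1 window held it 4 times, and the Mcoln1 and Atg3 windows 2 times each. A match is a description of the letters, not a binding site. The stretches around the matches are shown with each CACGTG in capitals, 5′ to 3′ on the gene's strand, and stop at the start of the gene unless a match crosses it.
Lamp1, chr8:13159073-13159160, plus strand: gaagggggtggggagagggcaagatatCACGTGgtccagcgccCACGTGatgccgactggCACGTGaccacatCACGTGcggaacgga
Mcoln1, chr8:3500421-3500506, plus strand: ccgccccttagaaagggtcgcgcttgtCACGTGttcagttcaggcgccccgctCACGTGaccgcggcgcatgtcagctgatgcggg
Atg3, chr16:45158708-45158790, plus strand: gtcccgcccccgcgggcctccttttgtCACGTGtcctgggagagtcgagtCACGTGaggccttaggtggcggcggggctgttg
Atg7, chr6:114670937-114670996, plus strand: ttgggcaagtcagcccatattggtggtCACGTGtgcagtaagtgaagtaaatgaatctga
Atg14, chr14:47568429-47568462, minus strand: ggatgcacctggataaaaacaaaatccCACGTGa
On the arrays, the differences of the members with TCACGTG ran from -0.12 (Atg7) to 0.33 (Mcoln1) with a median of 0.11 over 5 genes, against 0.07 over the 28 detected members with a window that lacked it.

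The lysosomal enzymes and membrane proteins that autophagy depends on, none of them members, were mostly higher in the knockout. Of 25 such genes 21 were measured, all were detected, and 19 were higher in the knockout (90.5%, against 49.4% of detected genes), although 1 of the 19, Neu1, held 42.1 on both arrays. Their median was 0.24, between -0.28 (Gla) and 0.51 (Sgsh), and no gene reached 1.5-fold, against 3.84% of genes. A difference above the SD was seen in 12 of 21 genes (57.1%, against 33.6% of detected genes), 11 higher and 1 lower. The list was chosen with earlier results of these data known, so its shares describe these 2 arrays and are not an independent test. Sgsh, an enzyme of heparan sulphate breakdown, read 80.3 and 57.0 (0.51), Clcn7, a chloride transporter of the lysosome, read 75.7 and 56.8 (0.42), and each rested on 1 detected probe set. Lipa, the lysosomal acid lipase, was higher in all 3 of its probe sets, by 0.43, 0.28 and 0.30. Of 13 genes of the list with several detected probe sets, 10 had them all on the same side (76.9%, against 56.5% of all genes with several detected probe sets). The list's median was between 0.19 and 0.26 under all 9 alternatives tried. Among the members, the membrane proteins Lamp1 and Lamp2 differed by 0.11 and -0.22.

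Markers of macrophages and monocytes, which are rich in lysosomes, were compared in the same samples. Of 12 such markers 9 were detected, 7 higher and 2 lower, with a median of 0.21, and 4 were past the SD (44.4%, against 33.6% of detected genes), all higher. Their summed intensity was 5190 in the knockout and 4641 in the wild type, and 4420 and 4347 without Csf1r. Most of the latter came from Lyz1 (2953 and 2927) and Lyz2 (1139 and 1151), so these totals say little about the dimmer markers. Csf1r, which encodes the CSF1 receptor of macrophages, read 770 and 294 in its brightest probe set (1.40), with 0.98 and 0.35 in the others. C1qc was at least 0.85 higher, and C1qa differed by 0.46, while Lyz2 differed by -0.0053. Cx3cr1, Cd68 and C1qb differed by 0.27, 0.21 and 0.15, Lyz1 by 0.02 and Cd14 by -0.04. The defining markers Adgre1, Mrc1 and Marco were under the floor in both samples. Markers of other blood cells were detected too, with medians of -0.06 (erythroid, 6 genes), -0.09 (neutrophil, 11), 0.31 (B cell and lymphoid, 10), -0.20 (T and natural killer cell, 4) and -0.52 (megakaryocyte, 6). The erythroid median leaves out the probe sets shared by several globin genes, which were higher in the knockout by 0.82 to 2.29. The part of these cells in the lysosomal difference was not tested.

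TCACGTG was in the promoters of 8 of 20 lysosomal enzyme and membrane genes with a window (40%), against 6.99% of detected genes. The stretches of the genes with the letters and the largest differences are shown in the same way; Clcn7 and Ctsa each hold a second match after the start, which is not shown.
Sgsh, chr11:119355511-119355566, minus strand: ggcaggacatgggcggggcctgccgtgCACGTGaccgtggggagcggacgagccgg
Clcn7, chr17:25133349-25133390, plus strand: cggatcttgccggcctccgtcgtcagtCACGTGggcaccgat
Cln3, chr7:126583325-126583412, minus strand: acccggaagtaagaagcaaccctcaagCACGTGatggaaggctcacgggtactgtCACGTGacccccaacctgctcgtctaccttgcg
Ctsa, chr2:164833734-164833772, plus strand: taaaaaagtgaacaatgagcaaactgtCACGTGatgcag
The 8 genes with the letters had a median difference of 0.30 and the 11 detected genes without them one of 0.17, with 7 of 8 and 10 of 11 higher. Across all detected genes the letters went with no shift, the median being -0.0083 over 649 genes with them and -0.0039 over 8640 without.

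**Figure D3:**
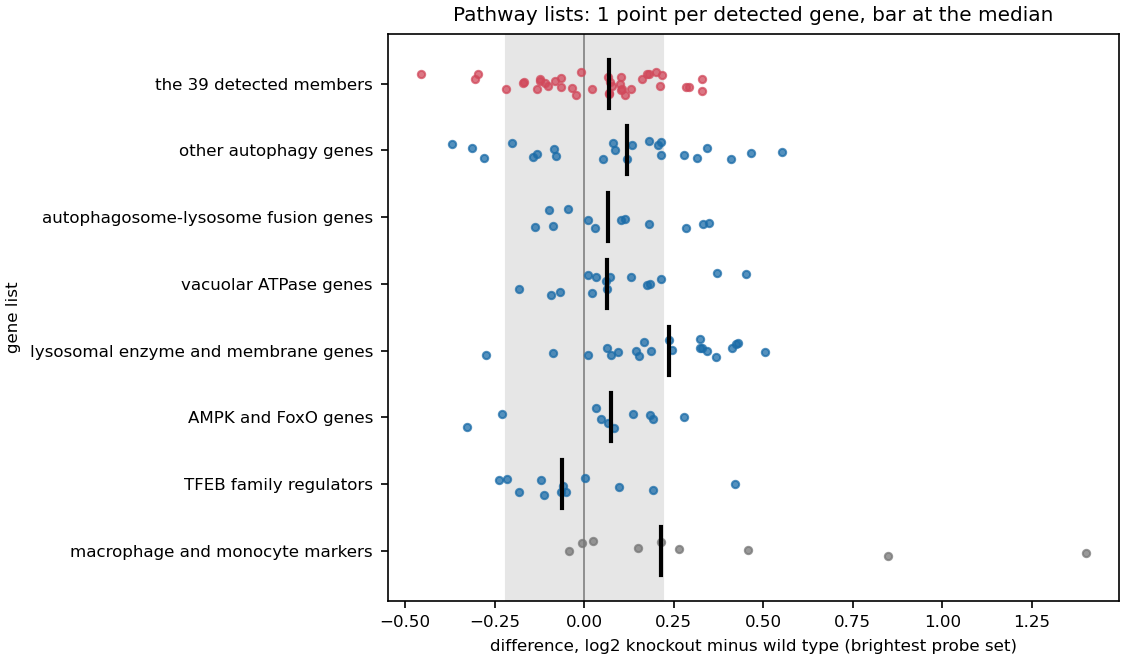
Difference (log2 knockout minus wild type, brightest probe set) of each detected gene in the 39 members, in 6 further lists of the pathway and in the macrophage and monocyte markers; bars are medians and the grey band is 1 SD of a probe set (0.22). The lysosomal enzyme and membrane genes lie mostly right of 0 with a median of 0.24, the members are centred at 0.07, and Csf1r is the rightmost point at 1.40.

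The other lists of the pathway had medians closer to 0. Genes of the vacuolar ATPase, the proton pump of the lysosome, had a median of 0.06 with 12 of 15 higher, 1 of which (Atp6v1b2) held equal values on both arrays, and 2 past the SD (13.3%, against 33.6% of detected genes). Its largest difference, that of Atp6v0b (0.45), was not seen in its other probe sets (-0.05 each). Atp6v0a1 followed with 0.37, and 0.06 in its other detected probe set, and Atp6v1c1 with 0.22, 0.40 and 0.27 in its 3 probe sets. Genes of fusion between autophagosome and lysosome had a median of 0.07 with 8 of 12 higher, 1 of which (Vps18) held equal values on both arrays. Past the SD were 3 of the fusion genes (25%, against 33.6% of detected genes), all higher. Among them Stx17, the fusion SNARE of the autophagosome, differed by 0.35 and 0.36 in its brighter probe sets but by -0.13 and -0.07 in the dimmer ones. Vps41 differed by 0.33, with 0.23 and 0.73 in its other probe sets, and Vps11 by 0.28, with 0.25, 0.70 and 0.10. Further autophagy genes, 15 of 23 higher, had a median of 0.12. Past the SD, 6 of them were higher and 3 lower (39.1%, against 33.6% of detected genes). Of these, Trp53inp1, a p53 target whose product binds LC3, read 710 and 488 (0.55, with 0.05 in its other probe set), Retreg1, the receptor for the endoplasmic reticulum, was higher by 0.46 and 0.54 in its 2 probe sets, and Tecpr1 by 0.41 and 0.30. In these lists no gene reached 1.5-fold by its brightest probe set, although Trp53inp1 did so after quantile or loess normalization. Of all detected genes 3.84% reached it, a share at which a count of 0 says little for lists this short.

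Upstream regulators went both ways. Genes of the energy sensor AMPK, which activates ULK1, and of the FoxO factors, which are known to drive autophagy genes in stem cells, had a median of 0.07 with 8 of 10 higher. Prkaa2 (-0.33), Prkag2 (0.28) and Prkab2 (-0.23) differed most in the brightest probe set. The other probe set detected on both arrays differed by 0.16 for Prkag2 and by 0.03 for Prkab2, and a second of Prkaa2 was lower with a bound of -0.51. Foxo3 read 828 and 730 (0.19). As the median over probe sets, 5 of the 10 were higher and the list's median was 0.0046. Regulators of TFEB, including the Ragulator subunits that hold it at the lysosome, had a median of -0.06 with 4 of 12 higher. Zkscan3, a repressor of autophagy genes, was higher in each of 3 probe sets, by 0.42, 0.33 and 0.50, whereas Lamtor4 differed by -0.24, and Lamtor2 by -0.22 with 0.09 in its other probe set.

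**Figure D4:**
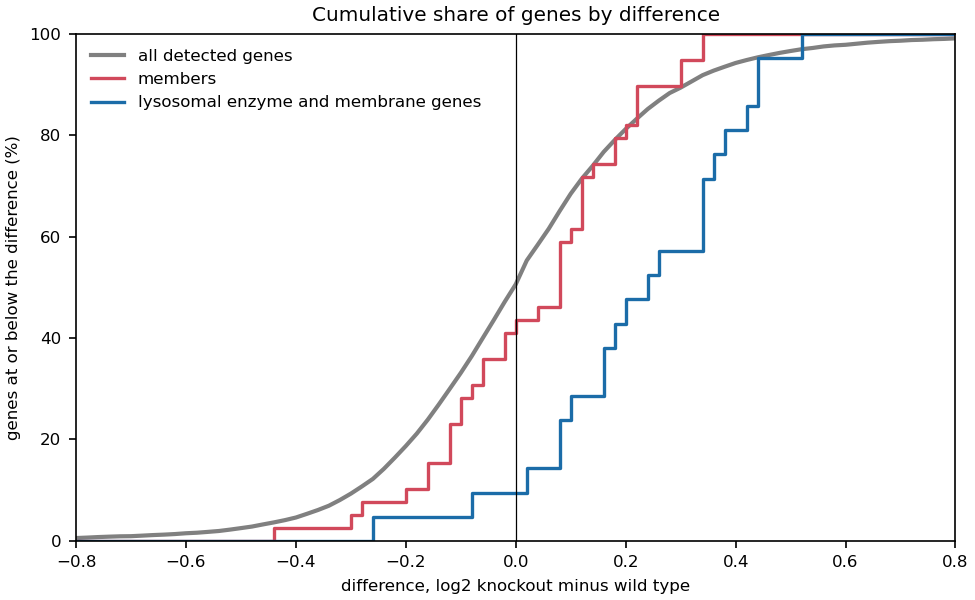
Cumulative share of genes (percent) at or below each difference (log2 knockout minus wild type, read in steps of 0.02) for all 11440 detected genes, the 39 members and the 21 lysosomal enzyme and membrane genes. The members' curve lies below that of all genes up to a difference of 0.10, with 46.2% against 61.5% at 0.06. Further right it meets and crosses that of all genes, and it ends at 0.33. The curve of the lysosomal genes lies to the right, with a median of 0.24.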

How the data were processed

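The values deposited by the authors are intensities on a linear scale, 1 for each of 45037 probe sets per array. The submitters' processing notes name MAS5 with no version or role, and do not say how background and scale were set. Gene names came from the platform's annotation of 2016, in which 34945 had 1 gene, 932 several and 9160 none; RefSeq (GRCm38.p6) supplied current symbols and promoters. Intensities were converted to log2, floored at each array's median and centred, which removed -0.01. A gene was represented by its brightest probe set (mean of both arrays), and detection on either array left 11440 of 18193 genes. The number of arrays limits the precision, and no p-value is given.

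The members and lists were chosen with earlier results of these data known. Values are given for every member, for Ppm1d, and for the 3 genes of each further pathway list with the largest difference; of the marker lists, this was done for macrophages, and the others are summarised. The remaining genes in the text were picked with their values in view. The centring, the normalizations and the differences per gene were tested on simulated arrays with known changes. These changes were larger than the difference of any member's brightest probe set, so the check does not cover differences as small as those reported. The alternatives were no centring, quantile or loess normalization, other floors, an offset and other probe sets. Python 3.11.15, pandas 2.3.3 and statsmodels 0.14.6 were used.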

Additional observations from a re-analysis of the deposited data

How the results depend on the processing

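The members' median stayed between 0.04 and 0.07 under all 9 alternatives, and no member reached 1.5-fold in any. The share of all detected genes past 1.5-fold ran from 1.41% with the offset to 4.13% without _s_at, _x_at and _a_at probe sets. With a floor at the 75th percentile it was 2.80%, and 27 members were left. At any of these shares, and at the 3.84% of the processing used above, a count of 0 says little for so short a list. Of the 39 members 28 kept their direction in every alternative in which they could be measured, and 14 of the 23 measured in all 9 did. Atg3, Gabarap and Gabarapl1, all within 0.07 of 0, changed it with the scaling. Gabarap also changed it with the floor and Gabarapl1 with the probe set. The rest changed it with the probe set or floor only. Sqstm1 moved from -0.46 to 0.03 as the median over probe sets and to 0.51 without _s_at, _x_at and _a_at probe sets. Member probe sets past 1.5-fold numbered 2 of 81 with a floor at the 25th percentile, 2 of 89 with none and 0 of 36 with a floor at the 75th. The share over all probe sets was not computed under these floors. That highest floor put the nucleation median at -0.066 and the lysosome median at -0.049, with 3 genes left in each. As the median over probe sets, nucleation was at 0.15, and AMPK and FoxO genes at 0.0046. Without the classed probe sets the receptors were at 0.29 (2 genes) and AMPK and FoxO genes at -0.021. Among further autophagy genes, 1 passed 1.5-fold after quantile or loess normalization. The causes were not tested. No paired analysis was possible because each genotype has 1 array.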

Other observations

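Of the values on the knockout array 1772 (3.93%), and of those on the wild-type array 1747 (3.88%), lay on a grid of 0.5 units with the same remainder, 0.317 after doubling; the next most frequent remainder occurred 117 and 119 times. Above the 75th percentile the grid held 9.82% and 9.80% of values. It held 5 member values on each array, among them the equal values of the dimmer Mcoln1 probe set.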
